A study of Arabidopsis thaliana with 30 samples.

Results

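Seed of the Arabidopsis thaliana mutant lec1 was set against wild-type seed, both of ecotype Ws-0 and both sampled 24 hours after fertilization, on the AtGenome1 GeneChip. The comparison holds the 2 lec1 arrays and the 2 wild-type arrays that the titles give as 24-hour seed on that chip, which is 4 of the 30 arrays of the series. The labels call the 2 arrays of a genotype technical replicates, so each genotype is 1 sample and no test of a difference between genotypes is possible. The labels give no allele number for this lec1 seed and no growth conditions. The study asks how loss of LEC1 changes gene activity during seed development, and it also holds 24-hour seed of lec1-1 and wild type on the newer ATH1 GeneChip, and mid-maturation seed of lec1 and wild type on AtGenome1.

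LEC1 (LEAFY COTYLEDON1) encodes a seed form of the B subunit of NF-Y, a transcription factor complex that binds CCAAT boxes. In Arabidopsis, lec1 embryos fail to keep embryo identity in their cotyledons, store little protein and oil and do not survive drying. A seed this young holds the zygote or a first few embryo cells, a young endosperm and, as most of its mass, the maternal seed coat. In whole seed, fewer cells of a type and less RNA per cell cannot be told apart.

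Signals are scaled average differences, the brightness of perfect-match over mismatch probes, and can be negative. They were floored at 250 for every ratio. A probe set was counted as higher or lower when both lec1 arrays lay at least 2-fold beyond both wild-type arrays, which is a rule of size and not a test. Where both arrays of 1 genotype were at or below the floor, the size is a bound and is written "at least N-fold". Of 8247 probe sets, controls aside, 5755 exceeded the floor on at least 1 of the 4 arrays and 2492 on none. The annotation used gave 1 gene to 3784 probe sets and no name to 4383. LEC1 is not among the named genes, so its own signal could not be used to check the genotypes.

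The 4 arrays differed in their controls as well as in genotype. The probe set for 5S ribosomal RNA read 418.6 and 312.9 in lec1 seed, against 21961 and 21268 in wild-type seed. It read 210.4 to 603.5 on the 6 AtGenome1 arrays of other stages, so that the wild-type 24-hour arrays are the ones that stood apart. On ATH1, 24-hour seed gave 114.3 and 78.7 for 5S RNA in lec1-1, and 177.9 and 61.2 in wild type. The 25S ribosomal RNA signal was 95758 and 78038 in lec1 seed, against 42336 and 40948 in wild type. The added hybridization control BioC read 12290 and 10316 on the lec1 arrays, against 6256 and 5480 on the wild-type arrays. The 25S and BioC signals were thus brighter on both lec1 arrays, opposite to 5S RNA. The ratio of 3' to 5' signal for GAPDH was 4.08 and 3.70 in lec1 seed and 3.10 and 3.10 in wild type. Array medians were 721.5 and 648.9 in lec1 seed and 740.1 and 752.5 in wild type. The part of these control differences in the gene differences below was not tested, and with 1 sample a genotype, sample preparation and genotype cannot be told apart.

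**Figure D1:**
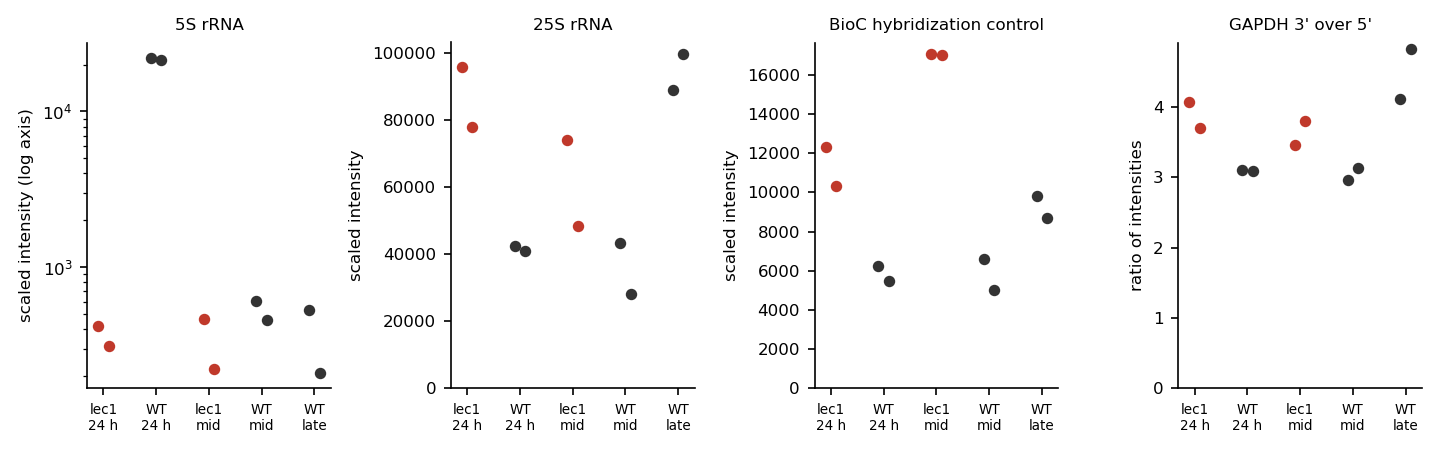
Signals of 4 control measures on each of the 10 AtGenome1 arrays, 2 points per sample (red, lec1; black, wild type). The panels give scaled intensity of 5S ribosomal RNA (log axis), 25S ribosomal RNA and the spiked BioC control, and the ratio of 3' to 5' GAPDH signal. For 5S RNA the 2 wild-type 24-hour arrays stand at 21961 and 21268, and the other 8 arrays lie between 210.4 and 603.5.

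More probe sets were higher in lec1 than lower. At 24 hours 162 were higher, 1.96% of all 8247 and 2.81% of those above the floor. Another 49 were lower, 0.594% of all and 0.851% of those above the floor. The excess of higher over lower depended on the rule, with 315 higher and 299 lower at 1.5-fold and 77 higher and 7 lower at 3-fold. The lower count was also larger with any 1 array left out, which makes the rule easier to meet: it was 223 without lec1 replicate 1, 104 without lec1 replicate 2, 84 without wild-type replicate 1 and 95 without wild-type replicate 2. The scale of technical error is given by the 2 arrays of a sample. In lec1 seed 203 probe sets (2.46%) lay at least 2-fold apart between its own arrays, against 35 (0.424%) in wild-type seed.

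The higher differences were also the larger ones. The median difference of the 162 was 1.72 on the log2 scale, or 3.30-fold, with median signals of 2376 in lec1 seed and 574.9 in wild-type seed. At least 4-fold higher were 56, and at least 8-fold higher were 19. The 49 lower probe sets had a median of -1.40, or 2.64-fold, with median signals of 372.3 in lec1 seed and 1256 in wild-type seed, and 6 of them were at least 4-fold lower. Over all probe sets above the floor the median was -0.07. Of the higher probe sets, 64 named 1 gene each, for 62 genes, and 95 had no name. Of the lower ones, 26 named 26 genes and 23 had no name. Near the threshold, 24 probe sets had their closest pair of arrays 2 to 2.1-fold apart and 39 had it 1.9 to 2-fold apart.

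**Figure D2:**
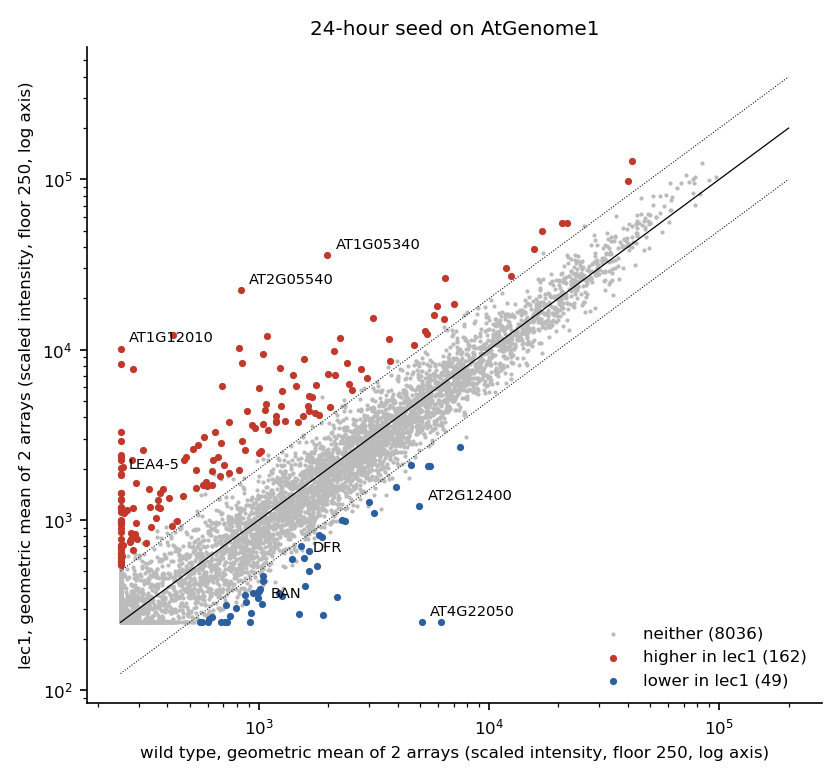
Scaled intensity of each probe set in lec1 seed (vertical) against wild-type seed (horizontal), as geometric means of 2 technical arrays floored at 250, on log axes. The solid line marks equality and the dotted lines 2-fold. The 162 higher probe sets (red) reach farther from the line than the 49 lower ones (blue), apart from AT4G22050 and 1 unnamed probe set near it.

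The largest higher difference of a named gene was in AT1G12010, of the ACC oxidase type, the enzyme class that makes ethylene in its last step. Its signals were 10095 and 10143 in lec1 seed, against 150.3 and 38.2 in wild-type seed. Wild type was thus below the floor on both arrays, and the gene was at least 40.5-fold higher in lec1. AT1G05340, which encodes a small cysteine-rich membrane protein, was the brightest of the leading genes. It read 32234 and 39930 in lec1 seed, against 1931 and 2028 in wild-type seed, a log2 difference of 4.18. The 2 arrays of each genotype lay close together.

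AT2G05540, a glycine-rich protein gene, read 21049 and 23715 in lec1 seed, against 737.5 and 943.3 in wild-type seed, higher by 4.74. AT1G62510, of the lipid transfer and seed storage inhibitor family, read 11223 and 13238 in lec1 seed, against 551.5 and 321.2 in wild-type seed, higher by 4.86. Both genes were bright in lec1 seed, and in wild type AT1G62510 lay below the array medians. A pair of genes of the DUF506 family, of unknown function, were among the leaders too. AT2G20670 read 3103 and 3455 in lec1 seed, against 135.8 and 149.1 in wild type, at least 13.1-fold higher. AT4G32480 read 5132 and 7213 in lec1 seed, against 686.3 and 700.0 in wild type, higher by 3.13.

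Genes of late embryogenesis abundant (LEA) proteins, which protect cells during drying and cold, were among the higher ones. LEA4-5 read 1727 and 1949 in lec1 seed, against 156.1 and -32.2 in wild-type seed, at least 7.34-fold higher. COR47, a dehydrin gene of the cold response, has a pair of probe sets here. One read 2302 and 2850 in lec1 seed, against 296.9 and 329.6 in wild-type seed, higher by 3.03. The other read 548.3 and 530.6 in lec1 seed, against 19.9 and 17.1 in wild type, at least 2.16-fold higher. The fainter set was not called with a floor of 500, where it differed by 0.11. Of 13 probe sets for 11 LEA genes on the array, these 3 were higher and 0 were lower, where 1.96% of all 8247 probe sets were higher and 0.594% lower. The 2 for DI21, a drought-induced gene, differed by 0.50 and 0.31 and were not called, and the remaining 8 were at or below the floor on all 4 arrays. Of the 3 called, the LEA4-5 set and the fainter COR47 set exceeded the floor in lec1 only, so they entered the count through the genotype in which they are high.

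**Figure D3:**
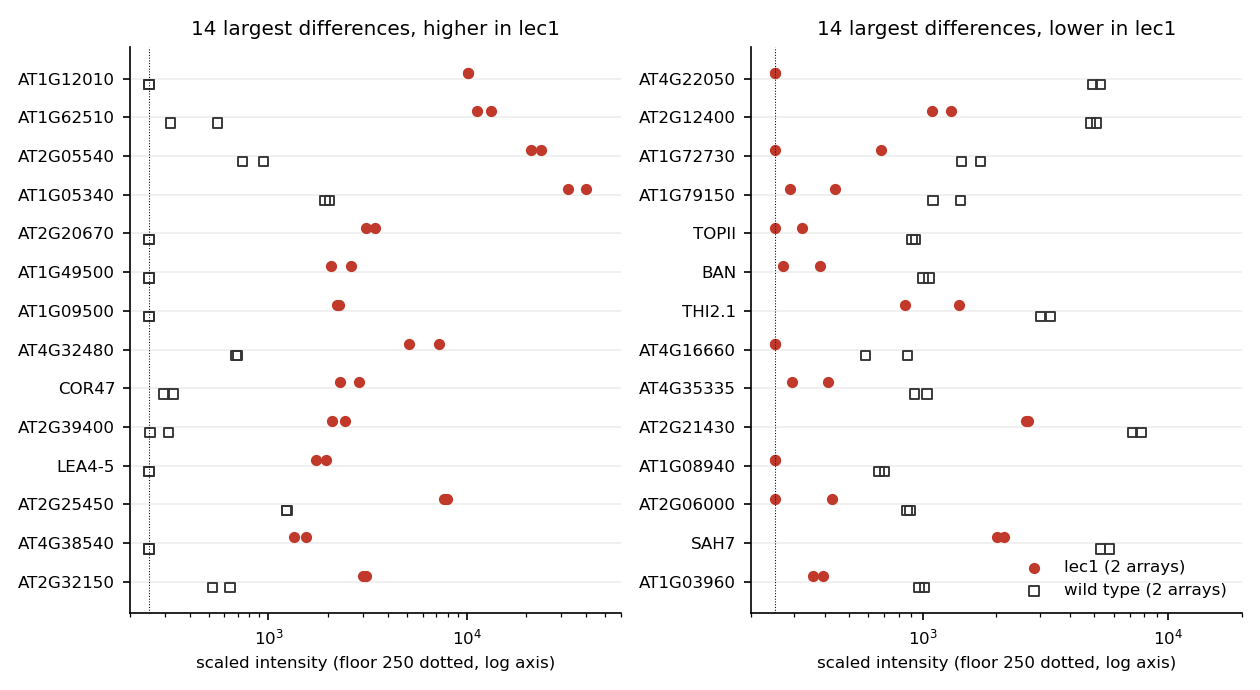
Scaled intensity on each of the 4 arrays for the 14 genes with the largest differences in each direction, with values floored at 250 (dotted line) on log axes. Filled red points are the 2 lec1 arrays and open squares the 2 wild-type arrays. The genotypes of the genes shown do not overlap by construction, since the rule that chose them required a 2-fold gap. At the floor stand both wild-type arrays of 6 genes on the left and both lec1 arrays of 3 genes on the right.

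Several other leading higher genes encode enzymes. AT2G25450, the dioxygenase gene of the GSL-OH type that hydroxylates glucosinolate side chains, read 7990 and 7674 in lec1 seed, against 1230 and 1238 in wild-type seed, higher by 2.67. AT1G09500, of the cinnamyl alcohol dehydrogenase type, was higher by at least 3.17 on the log2 scale, with 2280 and 2220 in lec1 seed, against -39.9 and -60.9 in wild type. The oxidoreductase gene AT4G38540 was at least 5.77-fold higher, and its other probe set, which may share sequence with the first, at least 4.68-fold. The hydrolase genes AT2G39400 and AT2G32150 were higher by 3.00 and 2.40. AT1G49500, given here without a function, was at least 9.30-fold higher. Among these 14 leading genes, 6 differences are bounds because wild type stood at the floor.

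Further higher genes, chosen after their values were seen, include some of the brightest differences. CCL, a gene whose transcript is known for its clock-regulated stability, read 49005 and 50974 in lec1 seed, against 18240 and 15779 in wild type, higher by 1.56. AT3G15450, known as a sugar-starvation and dormancy marker of the aluminium-induced family, read 53667 and 57085 in lec1 seed, against 21164 and 22522 in wild type, higher by 1.34. AT4G33150, the bifunctional gene of lysine breakdown, was higher by 2.34. WES1 (GH3.5), whose enzyme joins auxin to amino acids, read 12922 and 10380 in lec1 seed, against 3748 and 3563 in wild type, higher by 1.66. HIS1-3, a linker histone gene induced by drought, was higher by 1.85, and UGT84A3, a glucosyltransferase gene for phenylpropanoid acids, by 2.35. One called probe set is no messenger RNA: AT3G41768, an 18S ribosomal RNA gene, read 141715 and 115496 in lec1 seed, against 43950 and 39795 in wild type, beside the 25S difference given above.

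A pair of genes known from pollen were higher in lec1. VGDH1, a pectin methylesterase gene of the pollen tube, read 880.3 and 1203 in lec1 seed, against 375.7 and 340.1 in wild type, higher by 1.53. AT3G07820, a pollen polygalacturonase gene, read 1148 and 1218 in lec1 seed, against 321.0 and 353.5 in wild type, higher by 1.81. Both were chosen after their values were seen. On ATH1 at 24 hours AT3G07820 differed the other way, by -0.16, and did not pass by limma, and VGDH1 had no value there. Of the pollen list, 3 genes are on the array and 0 were called. With 1.96% higher and 0.594% lower among all 8247 probe sets, that count does not set the list apart. VGD1 read 2499 and 1292 in lec1 seed, against 697.9 and 762.5 in wild type, and was not called because the lec1 arrays disagreed. TUA1 differed by 0.18, and ACT12 was at or below the floor on all 4 arrays. Summed over the list, signals were 5388 and 4018 in lec1 seed and 3248 and 3250 in wild type. The part of pollen RNA in other differences was not tested.

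AT4G22050, a gene of the aspartyl proteases, had the largest lower difference of a named gene. It read 66.0 and -79.3 in lec1 seed, against 5311 and 4909 in wild-type seed, at least 20.4-fold lower. It was the only named gene more than 8-fold lower. AT2G12400, which encodes a membrane protein, read 1312 and 1095 in lec1 seed, against 5111 and 4841 in wild type, a difference of -2.05. AT2G21430, of the papain-type cysteine proteases, read 2646 and 2689 in lec1 seed, against 7763 and 7142 in wild type, a difference of -1.48. SAH7, of the Ole e 1 family of secreted proteins, read 2144 and 2003 in lec1 seed, against 5783 and 5298 in wild type, a difference of -1.42. In each of these genes the 2 arrays of a genotype lay close together.

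The flavonoid and seed coat tannin list holds 18 genes, of which 2, DFR and BAN, are on the array. Both were lower in lec1, where 0.594% of all 8247 probe sets and 0.851% of those above the floor were lower. With 2 genes read, the list as a whole is not described. DFR encodes dihydroflavonol reductase, which leads to anthocyanins and tannins. It read 722.2 and 490.7 in lec1 seed, against 1619 and 1514 in wild-type seed, a difference of -1.40. BAN encodes anthocyanidin reductase, which makes the tannin units of the inner seed coat and marks that cell layer. It read 381.7 and 269.4 in lec1 seed, against 1003 and 1063 in wild-type seed, a difference of -1.69. Both DFR and BAN read above the floor on all 4 arrays, whereas PHE1 of the endosperm was at or below it on all 4. The lists of seed coat patterning, fruit wall, phenylpropanoid entry, stress and pathogenesis genes have 0 genes on the array by the names used.

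Other leading lower genes were fainter, and some rested on unlike arrays. AT2G13290, a glycosyltransferase gene, read 269.1 and 341.8 in lec1 seed, against 762.3 and 821.3 in wild type, a difference of -1.38. AT1G08940, of the phosphoglycerate mutase family, read 46.1 and -18.2 in lec1 seed, against 698.8 and 665.2 in wild type, at least 2.73-fold lower. AT1G72730, of the eIF4A helicase type, read 676.0 and -406.6 in lec1 seed, against 1445 and 1719 in wild type, so that its -1.94 hides a wide gap between the lec1 arrays. AT1G79150, TOPII (DNA topoisomerase II), AT4G35335, AT2G06000 and AT1G03960 had differences of -1.81, -1.69, -1.50, -1.42 and -1.41, each with lec1 signals of 440.2 or less. AT4G16660, of the HSP70 family, was at least 2.85-fold lower. With a floor of 500, AT2G13290, AT1G08940, TOPII, AT4G35335, AT2G06000, AT1G03960 and AT4G16660 were not called.

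The probe sets of THI2.1, a thionin gene induced by jasmonate, disagreed. One read 1414 and 845.0 in lec1 seed, against 3021 and 3318 in wild type, a difference of -1.53. The other 2 were far brighter and differed the other way, by 0.30 and 0.39. The brighter of them read 93727 and 108821 in lec1 seed, against 76179 and 77831 in wild type. No direction is therefore given for this gene.

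The few seed reserve genes named on the array gave no signal above the floor in either genotype. The 5 probe sets of 3 storage protein genes, the oleosin gene OLEO3 and the bZIP factor gene EEL were at or below the floor on all 4 arrays. Of the fatty acid thioesterase genes, FATB differed by -0.11 and FaTA by -0.67, with 2339 and 2668 in lec1 seed, against 4218 and 3736 in wild type. Photosynthesis genes were bright, with a median of 0.24 and a range of -0.38 to 0.81 over 12 probe sets of 9 genes. Of these 0 were called, and with 2.81% higher and 0.851% lower among all probe sets above the floor, that count does not set them apart. PRK, of the carbon reduction cycle, had the highest of these, with 9693 and 9133 in lec1 seed, against 5415 and 5322 in wild type. Of the cell division list, PRL, a subunit of the replication licensing complex, differed by -0.72, with unlike lec1 arrays at 24863 and 12227, against 30271 and 27314 in wild type. ICL and AIM1, of reserve mobilisation, were not called, at 0.60 for ICL and 0.05 and -0.26 for AIM1. Of the 17 lists, 3 had a called member: LEA proteins, flavonoid genes and the touch, wounding and jasmonate list through THI2.1.

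Of the probe sets with no name, the highest read 7890 and 8681 in lec1 seed, against -51.4 and 144.7 in wild type, at least 33.1-fold higher. The next read 7075 and 8352 in lec1 seed, against 247.8 and 318.6 in wild type. The lowest read -60.6 and 83.7 in lec1 seed, against 6197 and 6137 in wild type, and was at least 24.7-fold lower. After it came one with 307.1 and 218.4 in lec1 seed, against 1896 and 1887 in wild type. These 4 are as large as leading named differences, and their genes are not named here.

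Seed of lec1-1 and wild type at the same age was measured on ATH1, with 2 separate arrays each that the labels call biological replicates. Whether the lec1 seed on AtGenome1 carried the same allele is not given. Nor is it given whether the AtGenome1 and ATH1 arrays shared RNA. By limma, with Benjamini-Hochberg adjustment over 18459 probe sets, 1 was higher (0.00542%) and 21 were lower (0.114%) in lec1-1, and 823 had an unadjusted p under 0.05. A fit of only the 4 arrays of this age, with 2 residual degrees of freedom, gave 10 higher and 36 lower of 13836 probe sets tested. The count of 22 was 11 without lec1-1 replicate 1, 7 without lec1-1 replicate 2, 5 without wild-type replicate 1 and 11 without wild-type replicate 2. Of the passing probe sets 12 name 1 gene, and 4 of those genes have a probe set on AtGenome1. All 4 were lower in lec1 there, where 0.594% of all 8247 probe sets were lower.

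AT4G22050 had signals of 2.6 and 80.2 in lec1-1 on ATH1, against 2297 and 2868 in wild type. Its difference there was -4.98 ± 0.57 on the log2 scale of signal plus 50 (limma moderated SE, n = 2 arrays each, adjusted p = 0.000231). AT2G13290 read 54.0 and 16.3 in lec1-1, against 346.4 and 466.5 in wild type, a difference of -2.45 ± 0.27 by limma (adjusted p = 0.000166). On both array types the mutant arrays thus lay below the wild-type arrays for both genes. DFR read 499.0 and 411.6 in lec1-1, against 2024 and 1803 in wild type, a difference of -1.96 ± 0.26 by limma (adjusted p = 0.00156). AT1G08940 read 17.2 and 39.0 in lec1-1, against 336.5 and 298.0 in wild type, a difference of -2.25 ± 0.30 by limma (adjusted p = 0.00163). Without wild-type replicate 1 the adjusted p by limma was 0.0575 for both DFR and AT1G08940. It was 0.0543 for DFR without lec1-1 replicate 2 and 0.0502 for AT1G08940 without lec1-1 replicate 1.

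Other lower genes had differences below 0 on ATH1 that did not pass by limma over all 20 arrays. BAN had 858.9 and 881.6 in lec1-1, against 3015 and 2213 in wild type, a difference of -1.52 (limma, adjusted p = 0.119). SAH7 had 503.2 and 536.0 in lec1-1, against 1667 and 1635 in wild type, a difference of -1.58 (limma, adjusted p = 0.10). AT2G12400 had 378.4 and 375.0 in lec1-1, against 940.5 and 962.4 in wild type, a difference of -1.23 (limma, adjusted p = 0.0555). In each of these 3 genes both lec1-1 arrays lay below both wild-type arrays. How many of all ATH1 probe sets separate in this way was not counted. Each gene passed in the limma fit of only the 4 arrays of this age, where 36 of 13836 probe sets were lower. The limma adjusted p in that fit was 0.00179 for BAN, 0.000975 for SAH7 and 0.00677 for AT2G12400. AT2G21430 differed by -0.55. All 14 leading lower genes were tested on ATH1, with differences from -4.98 to 0.25, and 11 lay below 0. Above 0 were AT1G72730 (0.25), AT2G06000 (0.16) and THI2.1 (0.10).

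The leading higher genes of AtGenome1 did not pass on ATH1 by limma over all 20 arrays. AT1G12010 had signals of 156.0 and 151.2 in lec1-1, against 80.1 and 35.7 in wild type, a log2 difference of 0.95. AT1G05340 had 907.4 and 1063 in lec1-1, against 527.5 and 360.6 in wild type, a difference of 1.08. AT1G62510 had 332.3 and 409.1 in lec1-1, against 131.0 and 153.1 in wild type, a difference of 1.13. All 3 were higher in lec1-1 on both arrays, with no overlap of genotypes. The share of all ATH1 probe sets that separate in this way was not counted. AT2G05540 had 588.7 and 1137 in lec1-1, against 758.1 and 268.7 in wild type, so that its genotypes overlapped. AT2G25450 had the largest of these differences, 1.46, with 573.9 and 845.5 in lec1-1, against 205.7 and 236.8 in wild type. LEA4-5 was faint in all, with 15 and 6.3 in lec1-1, against 37.2 and 6.6 in wild type. Of the 14 leading higher genes 13 were tested on ATH1 and 12 lay above 0, from -0.22 to 1.46, and 0 passed. In the limma fit of only the 4 arrays of this age, 10 of 13836 probe sets were higher. AT1G05340 (limma adjusted p = 0.0476) and AT2G25450 (limma adjusted p = 0.0131) were among them.

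Over all 2192 AtGenome1 probe sets above the floor whose gene was tested on ATH1, 52.1% lay above 0 there, with a median of 0.01. Of the 54 higher probe sets among them, 45 (83.3%) lay above 0 on ATH1, with a median of 0.48, and 0 passed. At least 2-fold higher on ATH1 were 3 of them, against 0.319% of all 2192. Of 25 lower probe sets, 19 (76.0%) lay below 0, with a median of -0.32, 7 were at least 2-fold lower, against 0.593% of all, and 4 passed. Across these genes within the pair of comparisons, Pearson's r of the log2 differences was 0.40 and Spearman's rho 0.31, as a description over 2192 probe sets that are not independent. The scales differ in array design, software and floor, so sizes cannot be compared directly.

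**Figure D4:**
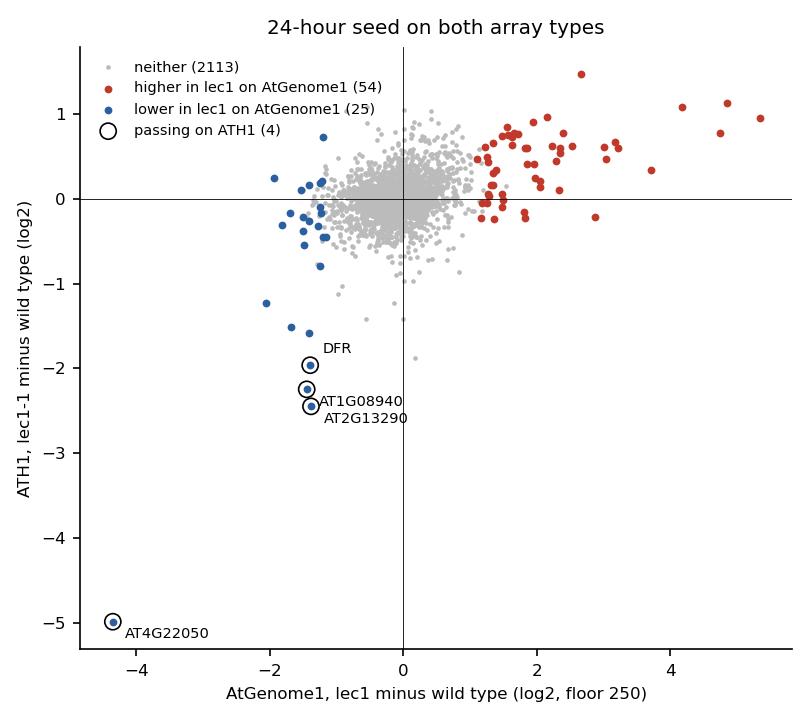
Log2 difference of lec1 minus wild type at 24 hours on AtGenome1 (horizontal, floor 250) against that of lec1-1 minus wild type on ATH1 (vertical, signal plus 50), 1 point per AtGenome1 probe set measured on both. Red points are higher and blue points lower by size on AtGenome1, and rings mark the 4 that passed by limma on ATH1. Most higher points lie between 0 and 1.46 on ATH1, and AT4G22050 stands alone at the lower left.

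At mid-maturation the same comparison on other AtGenome1 arrays, again 1 sample a genotype, gave 283 probe sets higher in lec1 (3.43% of 8247) and 216 lower (2.62%). Of the 162 higher at 24 hours, 41 were higher there as well, which is 25.3% of the 24-hour and 14.5% of the mid-maturation calls. Of the same 162, 7 were lower there and 114 neither. Of the 49 lower at 24 hours, 18 were lower there as well, which is 36.7% of the 24-hour and 8.33% of the mid-maturation calls, and 0 were higher. The spiked controls were brighter in lec1 at this stage too, with BioC at 17048 and 17031 in lec1 seed and 6591 and 5036 in wild type.

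Several leading genes differed the same way at both stages. LEA4-5 read 37042 and 34137 in lec1 seed at mid-maturation, against 64.8 and 45.1 in wild type of that stage, and read 19228 and 18318 in wild type at late maturation. AT1G12010 read 85698 and 81440 in lec1 seed at mid-maturation, against 39023 and 28088 in wild type, and 72520 and 76351 in wild type at late maturation. AT1G05340 read 59350 and 63043 in lec1 seed at mid-maturation, against 14502 and 14790 in wild type, and 64260 and 61992 in wild type at late maturation. All 3 were thus above wild type in lec1 at 24 hours and mid-maturation, and bright in late wild-type seed. AT1G54010, a GDSL lipase gene chosen after its values were seen, was higher by 1.55 at 24 hours and by 3.45 at mid-maturation.

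Among the lower genes, SAH7 read 504.4 and 839.4 in lec1 seed at mid-maturation, against 6390 and 7171 in wild type, a difference of -3.38. AT2G21430 read 7018 and 6301 in lec1 seed, against 45879 and 39074 in wild type, a difference of -2.67. AT4G22050 read 86.3 and 84.8 in lec1 seed, against 1166 and 1372 in wild type, and AT2G12400 differed by -1.33. These 4 were lower in lec1 at both stages. DFR and BAN were not called at mid-maturation, at -0.61 and -0.29. DFR was bright in both genotypes then, with 14450 and 16667 in lec1 seed, against 24063 and 23441 in wild type, and BAN read 6705 and 7957 in lec1 seed, against 7789 and 10171 in wild type.

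Some leading genes differed at 24 hours and were not called at mid-maturation. AT2G25450 differed by 2.67 at 24 hours and by 0.08 at mid-maturation, where it read 51411 and 58834 in lec1 seed, against 59600 and 45489 in wild type. The brighter COR47 probe set differed by 3.03 at 24 hours and by -0.04 at mid-maturation, with 12013 and 13670 in lec1 seed, against 12878 and 13458 in wild type. AT2G39400 differed by 3.00 and 0.09. Whether these differences changed between stages was not tested, since each value rests on 1 sample a genotype.

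**Figure D5:**
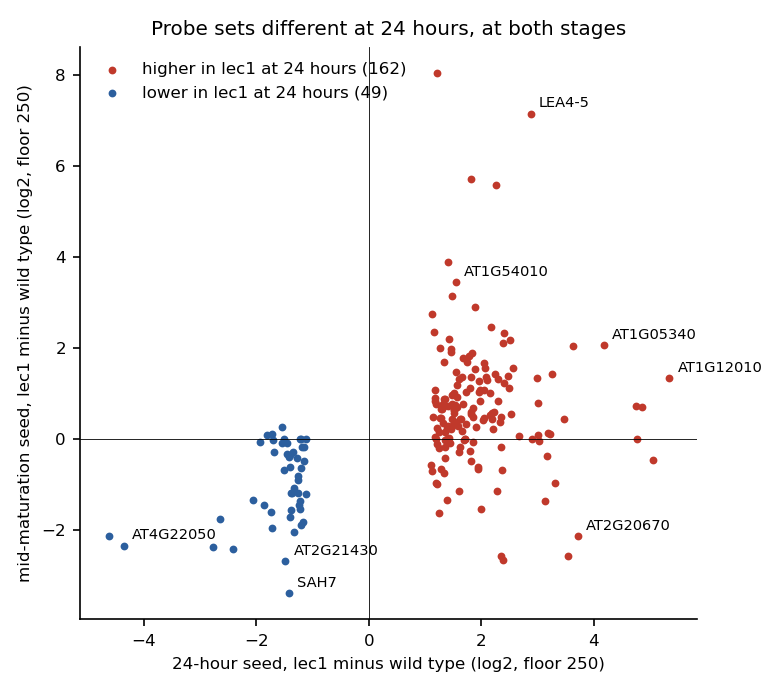
Log2 difference of lec1 minus wild type (floor 250) at 24 hours (horizontal) against mid-maturation (vertical) on AtGenome1, for the 162 probe sets higher (red) and the 49 lower (blue) at 24 hours. The lower ones all lie at or below 0.28 at mid-maturation, while the higher ones spread on both sides of 0, with LEA4-5 at 7.15 and AT2G20670 at -2.12.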

How the data were processed

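The authors deposited AtGenome1 intensity values on a linear scale, average differences made with Affymetrix Microarray Suite 4.0, scaled to 2500, per the labels. The deposited ATH1 values are intensity values from Microarray Suite 5.0, scaled to 500, per the labels. The descriptions of the AtGenome1 arrays name the ATH1 chip, while titles and probe sets are those of AtGenome1. Hybridization and background steps inside that software are not given in the sources used here.

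From these, 50 control probe sets were set aside, values were floored at 250 and compared by size with Python 3.11.15. With 1 sample a genotype on 2 technical arrays, the variation between seed samples cannot be estimated and no p-value is given. ATH1 log2(signal + 50) was fitted for 20 arrays in 10 groups with limma 3.58.1 (lmFit, eBayes with trend) in R 4.3.3, without controls and probe sets reaching 100 on fewer than 2 arrays, two-sided, threshold 0.05. Nothing says that these replicates came from separate plants or cultures beyond the word biological, so p-values measure the spread between the arrays. Both procedures were tested on simulated data.

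Gene names came from the platform annotation, updated through the annotation of TAIR10.1. Probe sets ending in _s_at, _g_at, _i_at or _r_at may share sequence with other genes. The rule named the 14 largest differences each way among called probe sets of 1 gene, up to 3 called members of each of 17 lists (otherwise the brightest member), and genes called on AtGenome1 that passed on ATH1. Members and lists were chosen with earlier results of these data known. Alternatives were other floors, folds, scalings and arrays left out. Promoter sequences were not used here.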

Additional observations from a re-analysis of the deposited data

Results flagged for a closer look

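AT2G20670, a DUF506 gene of unknown function, differed in opposite directions at the 2 stages of the AtGenome1 comparison. At 24 hours both lec1 arrays lay above both wild-type arrays, by 3.71 on the log2 scale. At mid-maturation it read 129.0 and 77.8 in lec1 seed, against 1115 and 1062 in wild type, a difference of -2.12. On ATH1 at 24 hours the difference was 0.33 and did not pass by limma (adjusted p = 1.00, n = 2 arrays each). The difference between stages was not tested, since each stage has 1 sample a genotype.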

How the results depend on the processing

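The count of higher probe sets (162) was 123 to 238 with a floor of 100 or 500, with group means, quantile normalization or median scaling, or with 1 array left out. It was 315 at 1.5-fold and 77 at 3-fold. The lower count (49) was 102 with a floor of 100, 28 with a floor of 500, 299 at 1.5-fold, 7 at 3-fold and 158 by group means. It was 84 to 223 with 1 array left out, 41 after quantile normalization and 35 after median scaling. Fewer arrays and a lower fold make the rule easier to meet, by construction. Of the lower calls at 3-fold, 100% lay below 0 on ATH1, but only 2 were on both arrays. The 31 named probe sets that were called kept their sign in all 248 values under other floors, scalings or arrays left out. Of their calls 8 were lost with a floor of 500 (COR47 at 0.11, AT2G13290 at -0.66, AT1G08940 at -0.45, AT4G16660 at -0.51, and TOPII, AT4G35335, AT2G06000 and AT1G03960 at -0.99 to -0.81), and AT2G06000 also with median scaling (-1.37). Of the 9 named and not called, AIM1 (0.05) was -0.11 without lec1 replicate 2.

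The ATH1 count (22) was 16 to 20 with quantile normalization, an offset of 16, no filter or a lot covariate. That covariate marks only whether the labels give a lot number. The labels do not say that arrays without a number came from another lot. The count was 46 of 13836 probe sets (10 higher, 36 lower) with only the 4 arrays of this age, and 5 to 11 with 1 array left out. With the replicate number as a block, on the same 4 arrays, it was 423 of 13836 probe sets (215 higher, 208 lower), with 1 residual degree of freedom. Same-numbered arrays of the 2 genotypes deviated together only weakly (r = 0.131 over 18459 probe sets, 1 independent pair), and the labels do not tie the numbers, so the block is no paired design. No paired analysis was possible on AtGenome1 because it gives no test. Several small ATH1 differences changed sign. THI2.1 was -0.054 after quantile normalization and -0.18 with the lot covariate, and AT4G35335 was 0.083 with that covariate. With 1 array left out, AT1G79150 was -0.82 to 0.092, AT2G06000 -0.045 to 0.36, AT2G20670 -0.18 to 0.85, AT4G35335 -0.10 to 0.040 (also 0.013) and LEA4-5 -0.53 to 0.096, where AT1G79150 and AT4G35335 each have another probe set that kept its sign. The cause was not tested. The search of promoters for motifs was not run.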

Other observations

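Among families picked by words in gene names, 32 were looked for and 24 had a member above the floor. Of 9 probe sets of tubulins and actins, 0 were called, with a median of -0.37, against -0.07 over all probe sets above the floor. Expansins, which loosen cell walls, had 0 of 6 called (median -0.18), and MADS-box factors 0 of 5 (median 0.16). Sugar transporters had 0 of 5 called (median 0.06). Among all probe sets above the floor 2.81% were higher and 0.851% lower, so counts of 0 do not set these families apart. By these word matches a called member was found in 3 families: HIS1-3 of the histones, the GDSL lipase gene AT1G54010 and BGLU45 of the beta-glucosidases. BGLU45 read 1089 and 1138 in lec1 seed, against 140.2 and 154.3 in wild type, at least 4.45-fold higher. Word matches miss genes that the annotation gives only by locus, such as AT4G22050, and also some that have symbols. UGT84A3 and VGDH1, called higher above, were not matched to the glycosyltransferases or pectin enzymes. The family counts therefore do not show that other families hold no called gene.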
